A study of Mus musculus with 6 samples.

Results

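The S100 family of EF-hand calcium-binding proteins was examined here through 10 mouse genes, S100a1, S100a3, S100a4, S100a5, S100a6, S100a8, S100a9, S100a10, S100a11 and S100a13, out of 27179 genes listed in the expression table. They lie on chromosome 3 and were chosen by their RPKM values in these same 6 libraries, after the difference between the genotype labels was known, so their own differences, standard errors and places past a threshold are given as a description, with no p-value. The table lists 19 S100 rows in all. RNA was sequenced from leukemia-initiating cells (LICs), the cells that can start the disease anew, in a mouse model of acute myeloid leukemia. In that model a retrovirus carrying the MLL-AF9 fusion oncogene and yellow fluorescent protein (MSCV-MLL-AF9-IRES-YFP) is introduced into lineage-negative fetal liver cells, which are then transplanted into lethally irradiated recipients. By their labels, 3 libraries are Asic3+/+ (WT) and 3 are Asic3-/- (Asic3-null), from C57BL/6 mice given as 8 weeks old, and both groups carry MLL-AF9. The cells were sorted from bone marrow as YFP+Mac-1+c-Kit+, and Asic3 encodes an acid-sensing ion channel of the plasma membrane. The labels do not say whether each library is a separate animal or a pool, so the spread between libraries, and any p-value built on it, may be partly technical.

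S100 proteins are small, mostly dimeric proteins with paired EF-hand motifs that change shape on binding calcium and then dock onto target proteins. In the myeloid lineage S100A8 and S100A9 join as calprotectin, an abundant cytosolic complex of neutrophils and monocytes that sequesters metal ions and acts as an extracellular alarm signal. Other members have intracellular partners of their own, such as annexin A2 for S100A10, annexin A1 for S100A11 and nonmuscle myosin for S100A4.

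Values are RPKM (read counts scaled by transcript length in kilobases and by library size), which puts genes of different length on a common scale. The library sizes inferred from the RPKM values lay between 1947168 and 2381861 reads, so 1 read on a 1-kb transcript is worth about 0.42 to 0.51 RPKM. Asic3, the targeted gene, ran against its labels, at 1.22, 1.85 and 0.435 RPKM under the WT label but 9.12, 4.11 and 6.58 under the Asic3-null label. Xist, expressed from the inactive X chromosome, was at 46.5 to 71.9 RPKM under the Asic3-null label and 0.024 to 0.057 under the WT label, and 4 Y-linked genes summed to 0 under the Asic3-null label and to 81.4 to 118.2 RPKM under the WT label. The sex of the cells and the genotype label therefore cannot be told apart, and every direction given here is between libraries by their labels. In bulk RNA, fewer cells of a type and less RNA per cell cannot be told apart either.

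In the libraries labelled WT the S100 genes were dominated by the calprotectin pair. The 10 genes summed to 2671, 3011 and 2746 RPKM in the libraries labelled WT and to 381.6, 510.9 and 412.5 in those labelled Asic3-null. The group means were 2809 ± 179 and 435.0 ± 67.5 (SD, n = 3 each), 6.46-fold apart. S100a8 and S100a9 made up 78.5% to 81.0% of the sum in the libraries labelled WT and 20.3% to 33.5% in those labelled Asic3-null. The other 8 genes summed to 572.0 to 575.5 RPKM in the former and 299.6 to 339.9 in the latter, a 1.82-fold difference of the means.

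**Figure D1:**
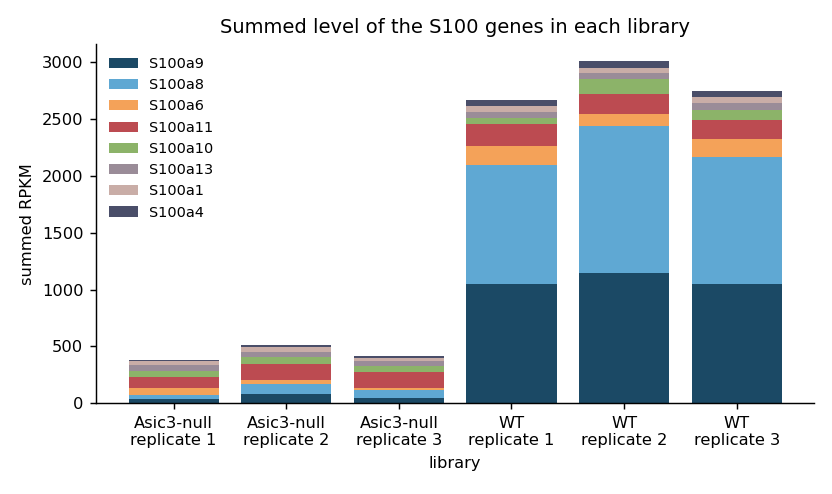
Summed RPKM in each library of the 8 tested S100 genes, stacked by gene in bars that start at 0 (the single read of S100a3 is not drawn). The 3 libraries labelled WT reach 2671 to 3011 RPKM, mostly S100a8 and S100a9, and the 3 labelled Asic3-null reach 381.6 to 510.9.

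S100a8 (Entrez 20201, chromosome 3, 90669071 to 90670034 on GRCm38) was at 1045, 1293 and 1125 RPKM in the libraries labelled WT and at 37.5, 91.0 and 68.4 in those labelled Asic3-null. The groups were far apart, the highest library labelled Asic3-null lying well below the lowest labelled WT. The means were 1154 ± 127 and 65.6 ± 26.9 RPKM (SD, n = 3), 17.6-fold apart, and the log2 difference, Asic3-null minus WT on log2(RPKM + 1), was -4.20 (SE 0.28). The reads behind these values summed to 2892 in the libraries labelled WT and 182 in those labelled Asic3-null (exact 95% Poisson intervals 2788 to 2999 and 157 to 210, counting error only). In rank, S100a8 was between the 31st and the 49th gene of the libraries labelled WT and between the 1075th and the 2863rd of those labelled Asic3-null.

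S100a9 (Entrez 20202, chromosome 3, 90692630 to 90695721), which encodes the calprotectin partner, was at 1052, 1146 and 1046 RPKM in the libraries labelled WT and at 39.8, 80.0 and 44.5 in those labelled Asic3-null. Again no library of one label reached the other group. The means were 1081 ± 56.4 and 54.8 ± 22.0 RPKM (SD, n = 3), 19.7-fold apart, with a log2 difference of -4.35 (SE 0.23). Relative to the mean, the 3 libraries labelled Asic3-null scattered more than those labelled WT, with coefficients of variation of 40.1% against 5.21% for S100a9, and S100a8 showed the same order. The balance between the calprotectin genes differed less than their level. The ratio of S100a8 to S100a9 was 0.993, 1.13 and 1.08 in the libraries labelled WT and 0.941, 1.14 and 1.54 in those labelled Asic3-null, so the groups overlapped in the ratio while lying far apart in the level.

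S100a4 (Entrez 20198, chromosome 3, 90603770 to 90606045), whose product binds nonmuscle myosin and is known from cell motility and metastasis, was at 51.5, 57.6 and 48.3 RPKM in the libraries labelled WT and at 9.52, 11.8 and 10.2 in those labelled Asic3-null. The groups did not overlap and the libraries within each lay close together. The means were 52.5 ± 4.77 and 10.5 ± 1.15 RPKM (SD, n = 3), 4.99-fold apart, with a log2 difference of -2.22 (SE 0.15). The lower level rests on 37 reads over the 3 libraries labelled Asic3-null (exact 95% Poisson interval 26.1 to 51.0), against 167 (142.6 to 194.3) over those labelled WT.

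S100a6 (Entrez 20200, chromosome 3, 90612894 to 90614414), which encodes calcyclin, was at 170.0, 110.0 and 151.6 RPKM in the libraries labelled WT and at 52.9, 32.7 and 23.7 in those labelled Asic3-null. All libraries labelled Asic3-null were below all labelled WT. The means were 143.9 ± 30.7 and 36.4 ± 14.9 RPKM (SD, n = 3), 3.95-fold apart, with a log2 difference of -2.00 (SE 0.28). Within the labels S100a6 did not track the calprotectin genes. Replicate 1 of the libraries labelled Asic3-null was the highest of its group for S100a6 and the lowest for S100a8, S100a9 and S100a4, and replicate 2 of those labelled WT was the lowest of its group for S100a6 and the highest for the same 3 genes.

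S100a10 (Entrez 20194, chromosome 3, 93555117 to 93564645), the annexin A2 partner that has lost calcium binding, was at 58.5, 134.3 and 85.8 RPKM in the libraries labelled WT and at 60.5, 57.5 and 48.5 in those labelled Asic3-null. It was the only one of the 8 tested members whose groups overlapped, since replicate 1 of the libraries labelled WT fell among the values labelled Asic3-null. The means were 92.9 ± 38.4 and 55.5 ± 6.24 RPKM (SD, n = 3), and the log2 difference of -0.66 (SE 0.26) became -0.35 without replicate 2 of the libraries labelled WT.

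S100a11 (Entrez 20195, chromosome 3, 93520496 to 93526288), the annexin A1 partner, was at 186.8, 172.2 and 168.5 RPKM in the libraries labelled WT and at 97.7, 145.8 and 140.3 in those labelled Asic3-null. The groups did not overlap, but 2 of the 3 libraries labelled Asic3-null came near the lowest labelled WT. The means were 175.8 ± 9.71 and 127.9 ± 26.3 RPKM (SD, n = 3), 1.37-fold apart, and the log2 difference of -0.48 (SE 0.16) became -0.29 without Asic3-null replicate 1.

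S100a1 (Entrez 20193, chromosome 3, 90511034 to 90514330), best known as a regulator of calcium cycling in heart muscle, was at 56.5, 47.6 and 57.0 RPKM in the libraries labelled WT and at 37.2, 45.7 and 34.6 in those labelled Asic3-null. The log2 difference was -0.45 (SE 0.15), and the groups were separated by a narrow gap. S100a13 (Entrez 20196, chromosome 3, 90514233 to 90524581), whose product takes part in the release of proteins that lack a signal peptide, was at 51.2, 49.6 and 64.4 RPKM in the libraries labelled WT and at 46.5, 46.4 and 42.3 in those labelled Asic3-null. Its log2 difference was the smallest among the 8 tested members, -0.27 (SE 0.14), and it became -0.16 without WT replicate 3. S100a1 and S100a13 overlap by 98 bases and no strand-marking step is stated for the library kit, so reads in the overlap cannot be assigned with certainty.

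S100a3 (Entrez 20197) and S100a5 (Entrez 20199), known from hair follicle and olfactory tissue, were at the limit of the depth. S100a3 had 1 read in replicate 2 of the libraries labelled WT (0.721 RPKM) and none elsewhere. S100a5 had no read in any library, which allows up to 3.69 reads per group of 3 libraries (exact 95% Poisson bound). Neither passed the filter of a mean RPKM of at least 1, so 8 of the 10 genes entered the fit. The other 9 S100 rows, among them S100b, S100z, S100g and S100a16, had no reads apart from 1 read of S100a14 in replicate 2 of the libraries labelled WT (0.468 RPKM).

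**Figure D2:**
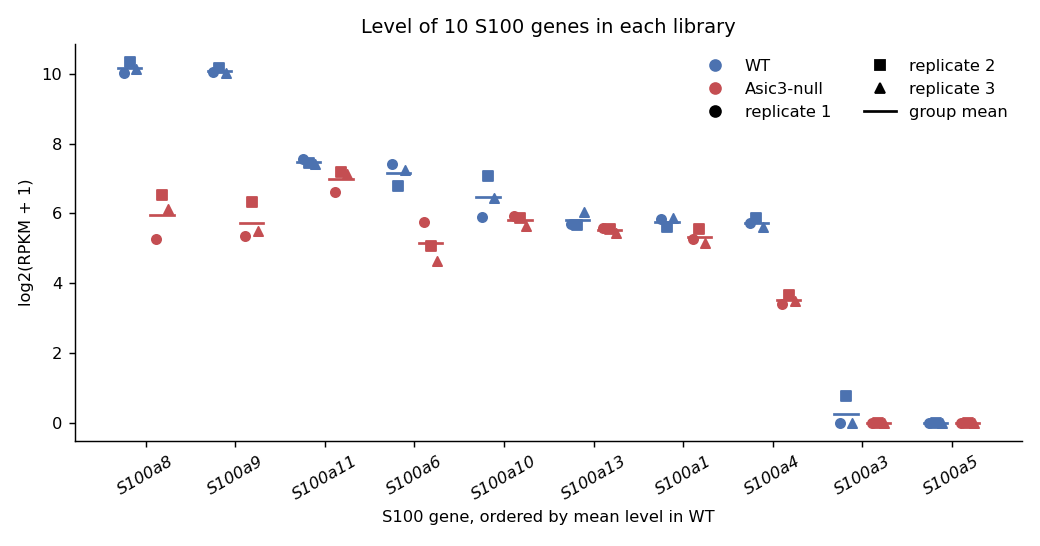
Level of the 10 S100 genes as log2(RPKM + 1), ordered by the mean under the WT label, with a point per library (marker shape by replicate, color by label) and a line at each group mean. S100a8, S100a9, S100a4 and S100a6 are well separated between labels, S100a11, S100a1 and S100a13 narrowly, and S100a10 overlaps.

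In a limma fit of log2(RPKM + 1) over 12037 genes, 3.35% of the genes reached an adjusted p under 0.05, with 2.82% lower and 0.523% higher under the Asic3-null label. S100a8, S100a9, S100a4 and S100a6 were among the lower genes, 4 of the 8 that entered the fit. Groups did not overlap for 22.6% of all tested genes, 11.4% lower and 11.2% higher under the Asic3-null label, and for 7 of these 8, all 7 lower. Both counts stem from the contrast by which the family was proposed and carry no weight of their own. The median log2 difference over all tested genes was 0.03.

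The order of the genes by level was not the same under both labels. In the libraries labelled WT, S100a8 and S100a9 were highest and overlapped each other, followed at a distance by S100a11, S100a6 and S100a10, each overlapping the next, and then S100a13, S100a1 and S100a4 with overlapping ranges. In those labelled Asic3-null, S100a11 was highest at 97.7 to 145.8 RPKM and S100a4 lowest at 9.52 to 11.8. Between them, S100a8, S100a10, S100a9, S100a13, S100a1 and S100a6 had ranges that chained into one another between 23.7 and 91.0 RPKM. Across the 8 genes, which share the same 6 libraries, the log2 difference and the mean level under the WT label (log2 scale) had a Pearson r of -0.85 and a Spearman rho of -0.52. Against the level under the Asic3-null label the values were 0.08 and -0.02. The difference shares its values with both levels, and over all 12037 tested genes the same relations gave r of -0.07 and 0.20. S100a11 shows where the order breaks, since it had the third highest level in the libraries labelled WT and one of the smaller differences.

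**Figure D3:**
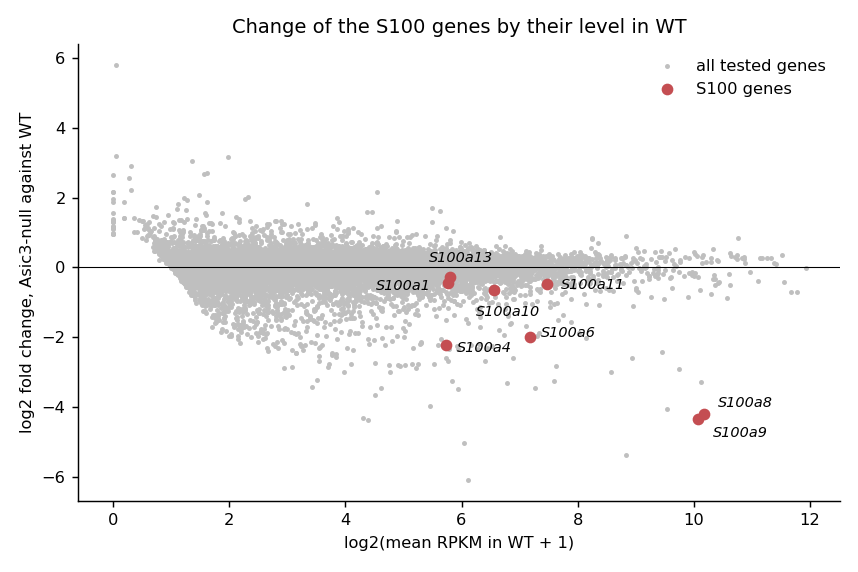
Log2 difference (Asic3-null minus WT) of the 8 tested S100 genes against their mean level under the WT label, as log2(mean RPKM + 1), in red over all 12037 tested genes in grey. S100a8 and S100a9 are highest and differ most, while S100a4 differs by -2.22 at a level similar to that of S100a1 and S100a13.

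Along chromosome 3, genes with like differences lay next to each other. The members span 3054 kb on GRCm38. S100a1 and S100a13 stand at one end, with log2 differences of -0.45 and -0.27. S100a4 and S100a6 begin 92.7 and 101.9 kb further along, with -2.22 and -2.00, and S100a8 and S100a9 begin 158.0 and 181.6 kb along, with -4.20 and -4.35. After a gap of 2825 kb come S100a11 and S100a10, with -0.48 and -0.66. S100a3 and S100a5, the members that did not pass the filter, lie among the genes of the first stretch.

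Genes of other families around the cluster were tested as neighbours, and none passed the threshold. Within 500 kb of the outermost members and between them, 81 other genes were listed, 59 had no reads and 15 passed the filter, all of them before S100a1. By limma 0 of these 15 had an adjusted p under 0.05 (background 3.35%), with a lowest adjusted p of 0.305, 2 had an unadjusted p under 0.05 and limma-voom on the recovered reads also called 0. Their log2 differences lay between -0.39 and 0.47 with a median of 0.10, and 5 of 15 were below 0. Of the 55 genes listed between S100a9 and S100a11, where the genes of the cornified skin envelope lie, 52 had no reads and 0 could be tested. The 6 genes beyond S100a10 within the window had no reads. No neighbour on the far side of S100a9 could therefore be tested in these cells.

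**Figure D4:**
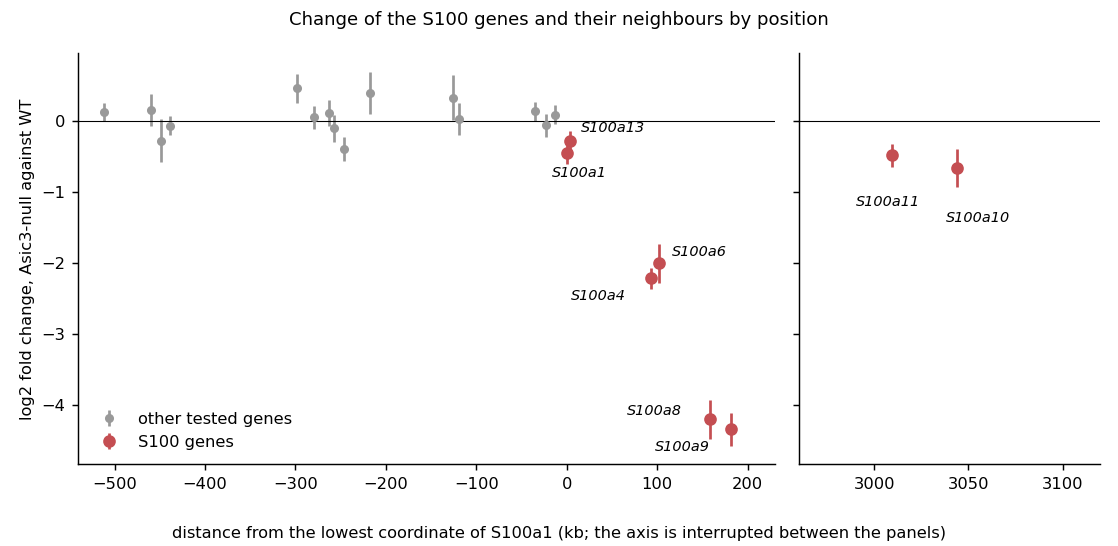
Log2 difference (Asic3-null minus WT) against the distance in kb from the lowest coordinate of S100a1, for the tested S100 genes and the 15 tested neighbours, with standard errors as bars and the axis interrupted in the long gap. The neighbours stay between -0.39 and 0.47, and the S100 genes go from -0.45 at S100a1 to -4.35 at S100a9 and back to -0.48 at S100a11.

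The start regions of 5 members are printed to set the genes that differed most (S100a8, S100a9, S100a4, S100a6) beside one that differed little (S100a11). A window was available for 9 of the 10 members, and not for S100a10. They are RefSeq sequences of GRCm38.p6, 250 bases before to 20 bases after the annotated start, 5′ to 3′ along the gene. Their positions are chr3:90668821-90669090 (plus strand) for S100a8, chr3:90695702-90695971 (minus strand) for S100a9, chr3:90603520-90603789 (plus) for S100a4, chr3:90612644-90612913 (plus) for S100a6 and chr3:93520246-93520515 (plus) for S100a11. Capitals mark matches to TTNNGNAA on either strand (the letters of a C/EBP site), GAGGAA on either strand (of a PU.1 site) and TATAAA on the gene's strand (a TATA box).
S100a8: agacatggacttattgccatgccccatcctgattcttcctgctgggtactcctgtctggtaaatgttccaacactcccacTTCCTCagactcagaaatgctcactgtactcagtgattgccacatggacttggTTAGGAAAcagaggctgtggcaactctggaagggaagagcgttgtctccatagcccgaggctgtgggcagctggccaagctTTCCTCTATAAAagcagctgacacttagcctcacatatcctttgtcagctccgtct
S100a9: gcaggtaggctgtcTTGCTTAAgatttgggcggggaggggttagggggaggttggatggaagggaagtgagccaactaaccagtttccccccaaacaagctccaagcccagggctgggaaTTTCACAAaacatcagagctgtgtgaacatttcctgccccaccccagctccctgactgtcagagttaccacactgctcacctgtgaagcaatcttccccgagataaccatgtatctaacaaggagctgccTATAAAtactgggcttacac
S100a4: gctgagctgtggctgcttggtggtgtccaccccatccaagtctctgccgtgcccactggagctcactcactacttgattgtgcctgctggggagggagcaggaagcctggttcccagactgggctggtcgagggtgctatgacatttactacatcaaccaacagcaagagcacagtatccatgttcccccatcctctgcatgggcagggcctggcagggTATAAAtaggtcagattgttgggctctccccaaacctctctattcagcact
S100a6: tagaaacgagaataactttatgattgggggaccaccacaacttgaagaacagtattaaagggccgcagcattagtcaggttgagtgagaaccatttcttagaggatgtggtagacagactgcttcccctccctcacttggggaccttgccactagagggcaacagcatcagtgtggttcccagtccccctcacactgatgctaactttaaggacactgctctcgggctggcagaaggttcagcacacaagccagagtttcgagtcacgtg
S100a11: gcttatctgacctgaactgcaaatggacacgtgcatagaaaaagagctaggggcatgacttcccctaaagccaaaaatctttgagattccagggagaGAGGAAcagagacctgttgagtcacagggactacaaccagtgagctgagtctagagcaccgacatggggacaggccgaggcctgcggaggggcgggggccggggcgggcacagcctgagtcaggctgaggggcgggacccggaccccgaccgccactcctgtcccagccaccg

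S100a8 held 1 TTNNGNAA match at -117, GAGGAA matches at -170 and -36 and TATAAA at -30, where positions give the first base relative to the start. The last of these GAGGAA matches and the TATAAA adjoin without overlapping. S100a9 held TTNNGNAA matches at -236 and -130 and TATAAA beginning at the annotated start itself. S100a4 held only TATAAA at -31, S100a11 only GAGGAA at -153, and S100a6 none of the 3. Windows of the same length hold TTNNGNAA in 38.5% of 32851 RefSeq starts, GAGGAA in 25.1% and TATAAA in 7.91%, so the first 2 are common by themselves. The 270-base windows of S100a11, S100a1 and S100a13 held 12, 9 and 13 CpG dinucleotides, against 3, 2, 2 and 5 in those of S100a8, S100a9, S100a4 and S100a6 and a median of 6 over all windows. The windows of S100a1 and S100a13 share 144 bases, so their counts are partly of the same CpGs. The windows of S100a3 and S100a5, which had almost no reads, held as few, with 0 to 5 in the 4 windows of S100a3 and 3 in that of S100a5, and matches to all 3 motifs occur among those of S100a3 too. A match is a description of letters and not of a bound site, and no match says only that these letters are not in the window.

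Genes that act with S100 proteins were taken as a list of 45, of which 38 passed the filter. By limma, 7 of these fell and 0 rose at an adjusted p under 0.05, beside 2.82% and 0.523% of all tested genes. The count was 4 without Asic3-null replicate 1, Asic3-null replicate 3 or WT replicate 3, and also 4 with no filter or no intensity trend. The median log2 difference was -0.33 and 31 of 38 were below 0, whereas over all tested genes the median was 0.03 and 45.5% were below 0. The list was made with earlier results of these data known and is not independent evidence of its direction.

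Among the annexins and other bound proteins, 2 of 16 tested genes fell and 0 rose. Anxa1, which encodes the S100A11-binding annexin A1, was at 301.7, 333.9 and 353.4 RPKM in the libraries labelled WT and at 135.3, 152.6 and 182.2 in those labelled Asic3-null. Anxa2, encoding the S100A10 partner, was at 275.2, 264.6 and 303.4 against 129.2, 122.5 and 158.4 RPKM. Both annexins were clearly separated by label. The log2 difference was -1.08 (SE 0.14, limma adjusted p = 0.00419) for Anxa1 and -1.04 (SE 0.13, limma adjusted p = 0.00393) for Anxa2, both larger in size than those of S100a11 and S100a10 beside them, a contrast between genes that was not tested. Capzb, an actin-capping protein bound by S100 proteins, had -0.38 (limma adjusted p = 0.121).

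The phagocyte NADPH oxidase, to which calprotectin delivers arachidonic acid, had 3 of 6 genes that fell and 0 that rose. Cybb, its catalytic subunit, was at 149.2, 99.1 and 94.6 RPKM in the libraries labelled WT and at 34.5, 38.3 and 36.8 in those labelled Asic3-null, with a log2 difference of -1.59 (SE 0.18, limma adjusted p = 0.00221). Ncf4, a cytosolic subunit, was at 221.1, 198.5 and 155.4 against 79.9, 102.2 and 93.4 RPKM, with -1.05 (SE 0.16, limma adjusted p = 0.00983). Cyba, the membrane partner of Cybb, was at 844.6, 732.1 and 784.1 against 455.2, 600.2 and 515.6 RPKM, with -0.59 (SE 0.13, limma adjusted p = 0.0454). None of the 3 overlapped between labels, but the call of Cyba was lost without any of 5 libraries. Leaving out Asic3-null replicate 1 or 3 gave it a limma adjusted p of 0.158 or 0.143, and leaving out WT replicate 1, 2 or 3 gave 0.149, 0.0869 or 0.115.

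Of the receptors and adaptors for extracellular S100 proteins, 1 of 8 tested genes fell and 0 rose. Cd14, a co-receptor of TLR4, was at 43.5, 75.1 and 54.5 RPKM in the libraries labelled WT and at 14.4, 25.0 and 26.7 in those labelled Asic3-null, with a log2 difference of -1.36 (SE 0.26, limma adjusted p = 0.0279). Its limma adjusted p became 0.0601, 0.0590 or 0.0503 when Asic3-null replicate 1, 2 or 3 was left out, and 0.0872 or 0.0736 when WT replicate 2 or 3 was. Ly96, the TLR4 accessory protein MD-2, had -0.61 (limma adjusted p = 0.273) and Myd88, the adaptor downstream, -0.48 (limma adjusted p = 0.284). Tlr4 itself was low, at 0.618, 1.20 and 1.32 RPKM against 0.561, 0.327 and 0.553, and did not pass the filter. It is named after its values were seen.

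Among 8 transcription factors of myeloid cells that are known to act on S100 genes or beside them, 1 fell and 0 rose. Cebpb was at 80.0, 68.6 and 103.9 RPKM in the libraries labelled WT and at 51.7, 49.7 and 46.2 in those labelled Asic3-null, with a log2 difference of -0.74 (SE 0.16, limma adjusted p = 0.0461). The groups did not overlap, but with Asic3-null replicate 1, 2 or 3 left out its limma adjusted p was 0.105, 0.115 or 0.165, and with WT replicate 1 or 3 left out 0.119 or 0.108. Cebpd had -0.51 (limma adjusted p = 0.113) and Spi1, which encodes PU.1, -0.38 (limma adjusted p = 0.136).

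**Figure D5:**
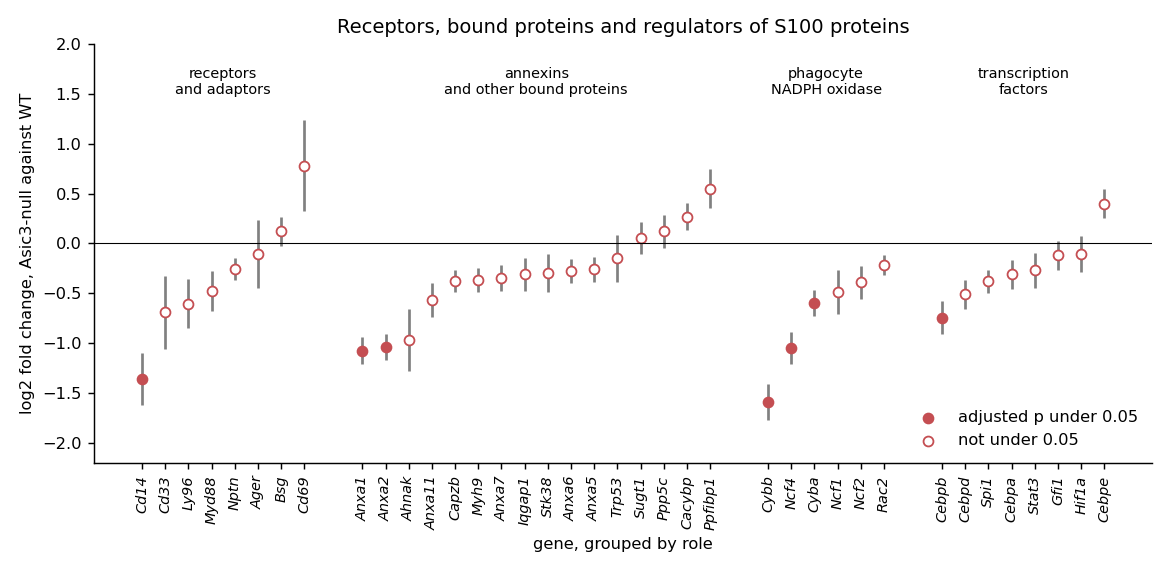
Log2 difference (Asic3-null minus WT) of the 38 tested partner genes by role, with standard errors as bars and filled points for an adjusted p under 0.05 by limma. The 7 filled points (Cybb, Cd14, Anxa1, Ncf4, Anxa2, Cebpb and Cyba) are all below 0.

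Genes whose centred log2(RPKM + 1) over the 6 libraries came closest to the S100 genes were named by the root-mean-square difference from them. For S100a8 the closest gene outside the members was Ngp, a neutrophil granule gene, at a difference of 0.148 log2 units, followed by Psma8 (0.394) and the Y-linked Ddx3y (0.432). The same 3 genes came first for S100a9, at 0.212, 0.315 and 0.347. The members S100a8 and S100a9 differed from each other by 0.222, so Ngp was as near to either as they were to each other. For S100a4 the closest were Clec4a1 (0.0737), 1700030C10Rik (0.149) and Ms4a4c (0.175). The median over all tested genes was 2.17, 2.23 and 1.16 for S100a8, S100a9 and S100a4. Psma8, Ddx3y and 1700030C10Rik had no reads in the libraries labelled Asic3-null, and Clec4a1 and Ms4a4c were at means of 0.454 and 0.657 RPKM there, so the place of these 5 genes rests on the pseudocount of 1.

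Markers of more mature myeloid cells were mostly lower under the Asic3-null label, as the S100 genes were. Their lists were made with earlier results of these data known, so the counts are not independent evidence of direction. Of 12 listed genes of mature neutrophils 10 were tested and all 10 fell by limma, beside 2.82% of all tested genes. The 12 summed to 1782 to 2117 RPKM in the libraries labelled WT and 161.5 to 224.9 in those labelled Asic3-null. Ly6g, a surface marker that defines mature neutrophils, was at 0 in 5 libraries, and at 1.07 RPKM in Asic3-null replicate 1. Of 9 listed markers of monocytes and macrophages 8 were tested and 4 fell, and the 9 summed to 2397 to 2926 RPKM under the WT label and 1240 to 1463 under the Asic3-null label. Most of that gap lay in Lyz2, at means of 1116 RPKM under the WT label and 111.3 under the Asic3-null label. Of the genes that define the sort, Itgam, encoding the Mac-1 alpha chain, was at 89.5, 85.7 and 55.1 RPKM in the libraries labelled WT and at 12.9, 12.3 and 16.9 in those labelled Asic3-null, while Kit was at 9.09, 15.3 and 8.97 against 14.4, 17.9 and 20.4. Both sort markers were thus present under both labels, Itgam lower and Kit overlapping. Erythroid markers were low and rested on few reads, with Ermap at 0. The 1 gene of the list that was tested passed in neither direction. The sums did not overlap but lay too close at this depth to show a difference. They were 2.84 to 10.3 RPKM under the WT label and 0.972 to 2.41 under the Asic3-null label. B cell markers summed to 125.9 to 177.3 and 95.6 to 169.8 RPKM in the same order, with Ms4a1 at 0. T cell markers stayed at or under 2.10 RPKM in sum with Cd3e, Cd4 and Cd8a at 0, and keratinocyte markers at or under 2.32 with Krt5, Krt14, Lor and Flg at 0. Platelet markers summed to 7.26 to 12.9 RPKM under the WT label against 11.8 to 23.0 under the Asic3-null label with Pf4 and Ppbp at 0, and markers of eosinophils, basophils and mast cells to 69.8 to 174.0 against 128.3 to 134.9 with Cma1 and Tpsb2 at 0. The part of other cell types, or of a shift in maturity, in the levels of the S100 genes was not tested.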

How the data were processed

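Total RNA of sorted LICs was sequenced from 3 libraries per genotype label with a TruSeq v2 kit. Per the submitters' processing notes, bases were called with CASAVA 1.8.2 and reads aligned to GRCm38 with TopHat2 2.0.12. The authors deposited these data as RPKM, with genes keyed by Entrez number and a column for each library. The counting tool and annotation are not given in the sources used here. Symbols and positions came from RefSeq GRCm38.p6, which named 25275 of 27179 genes.

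A gene entered the fit if its mean RPKM was 1 or more. The limma package (3.58.1, R 4.3.3) was applied to log2(RPKM + 1) with an intensity trend and no covariate beside the genotype label, and p-values were adjusted by Benjamini-Hochberg with a threshold of 0.05. The fit was tested on simulated data. A fold change on this scale understates the change of low genes. Whole reads were recovered for all 16825 genes above 0, within 0.0001 reads, and were used for depth, Poisson intervals and limma-voom. Reads carry no molecular identifiers, so intervals cover counting error only. Alternatives were another pseudocount, other filters, scalings and variance models, a replicate block and leaving out each library.

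The members, lists and alternatives were chosen with earlier results of these data known. Named were all members and other S100 genes, called neighbours, of the partner list the called genes and the 3 with the lowest p in each role, and the 3 genes closest to S100a8, S100a9 and S100a4. Some marker genes are not reported here.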

Additional observations from a re-analysis of the deposited data

How the results depend on the processing

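The 4 S100 genes past the threshold (S100a8, S100a9, S100a4 and S100a6) passed it under all 14 alternatives, the other 4 tested members under none, and none of the 8 changed direction. Since the members were chosen on this contrast in these libraries, that is no sign of stability. Their log2 differences ranged from -4.48 to -3.85 for S100a8, -4.65 to -4.15 for S100a9, -2.31 to -2.15 for S100a4, -2.30 to -1.74 for S100a6, -0.95 to -0.35 for S100a10, -0.58 to -0.29 for S100a11, -0.56 to -0.37 for S100a1 and -0.34 to -0.16 for S100a13. No neighbour passed under any alternative, wider and narrower windows included. The count of all genes past the threshold, 403, was 246 with a replicate block and 203 to 293 leaving out 1 library (293 without WT replicate 3 and at most 239 without any other), and the cause of the former was not tested, whereas the latter fits use fewer samples. The partner count of 7 was 4 with no filter and 4 without an intensity trend (cause not tested), 4 to 5 leaving out 1 library, at 4 without Asic3-null replicate 1, Asic3-null replicate 3 or WT replicate 3, and 5 with the block. Beside single libraries, Cd14, Cyba and Cebpb lost their call with no filter and without a trend, Cyba and Cebpb also with the block, and Cebpb also with a pseudocount of 0.1. Same-numbered libraries did not deviate together (correlations 0.06, -0.06 and -0.12, with 2 of 6 libraries closest to their own number), so the numbers were not taken as pairs. S100a3, S100a5 and Tlr4 were under the filter and untested.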

Other observations

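Tchh, the trichohyalin gene of the S100-fused type that lies between S100a9 and S100a11, was the only gene of that stretch with more than 4 reads. It had 60 reads over the 6 libraries, but its mean RPKM was under 1 and it was not tested. Cebpe, which drives late granulocyte maturation, had a log2 difference of 0.40 (limma adjusted p = 0.222), against the sign of the S100 genes. Both genes were chosen after their values were seen.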
